A study of Mus musculus with 9 samples.

Results

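The complement system of mouse ear skin is described here through 36 genes, the complement components, regulators and receptors found under their symbols in a table of 25124 genes. The members were taken by name from a list of 37 symbols and not by any measured value, and the absent symbol, C5, is an older name of Hc, which is among the 36. The RNA came from ear tissue of C57BL/6 mice that carried Staphylococcus epidermidis strain LM087, a skin commensal, swabbed on every other day up to day 8. In 5 libraries the mice had the bacterium alone, and in 4 libraries they had the bacterium together with anti-CTLA-4, an antibody that blocks a brake on T cell activation, so the bacterium is shared by all 9 libraries. No age or sex of the mice, and no clone, dose or schedule of the antibody, stands in the labels, and skin without the bacterium or with the antibody alone was not analysed here. The labels number the replicates without tying each to its own mouse, so each p-value speaks of the scatter among these samples, some of which may be technical.

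Complement is a cascade of serum and tissue proteins that marks microbes and damaged cells. The classical pathway starts with C1, made of C1q and the proteases C1r and C1s, the lectin pathway starts with sugar-binding proteins and their MASP proteases, and the alternative pathway amplifies through factor B and properdin. All of them converge on C3 and then on C5, which release the peptides C3a and C5a that act on leukocyte receptors, while the late components C6 to C9 build a pore in membranes. Host cells carry inhibitors that break the convertases or block the pore. The liver makes most serum complement, and macrophages, fibroblasts and keratinocytes make some components in skin.

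Values are in TPM, a transcript's share of a library scaled to a fixed total, as deposited. The values carry the genomic span of each gene (end minus start) as its length: among 827 genes above 0 in a single library, TPM times span had a log2 SD of 0.393, against 1.82 with the length of the longest annotated transcript. Whole reads could therefore be worked back from the table. Between 10210000 and 13870000 reads stood behind each library, and every low value checked lay within 0.1 of a whole read. A long gene with many introns gets a low TPM for its number of reads on this scale. Sums of TPM are therefore given to set the groups side by side, and members are ranked by level only after division by transcript length. Keratinocyte markers summed to between 20199 and 28942 TPM and fibroblast markers to between 1325 and 2007 TPM, with none of either list at 0 in all libraries.

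Of the 36 members, 23 reached 1 TPM in at least 4 libraries and were tested. With anti-CTLA-4, 9 of the 23 rose and 0 fell at a limma adjusted p under 0.05 (Benjamini-Hochberg over all 15704 genes tested). At an unadjusted p under 0.05 and with limma-voom on the recovered reads the members lower were 0 as well. Over all tested genes 7.16% rose and 4.48% fell. The members that rose were C1qa, C1qb, C1qc, C1ra and C1s1 of the C1 complex, Cfb and Cfp of the alternative pathway, and the receptor genes C3ar1 and C5ar1. The groups did not overlap for these 9 and overlapped for the other 14, where 8.02% of all tested genes lay wholly higher. The median log2 fold change was 0.12 over the 23 tested members and -0.014 over all tested genes. Summed over the 36 members, the level was 637 to 807 TPM with the bacterium alone and 943 to 1121 TPM with anti-CTLA-4. In bulk tissue, more cells of a type and more RNA per cell cannot be told apart.

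**Figure D1:**
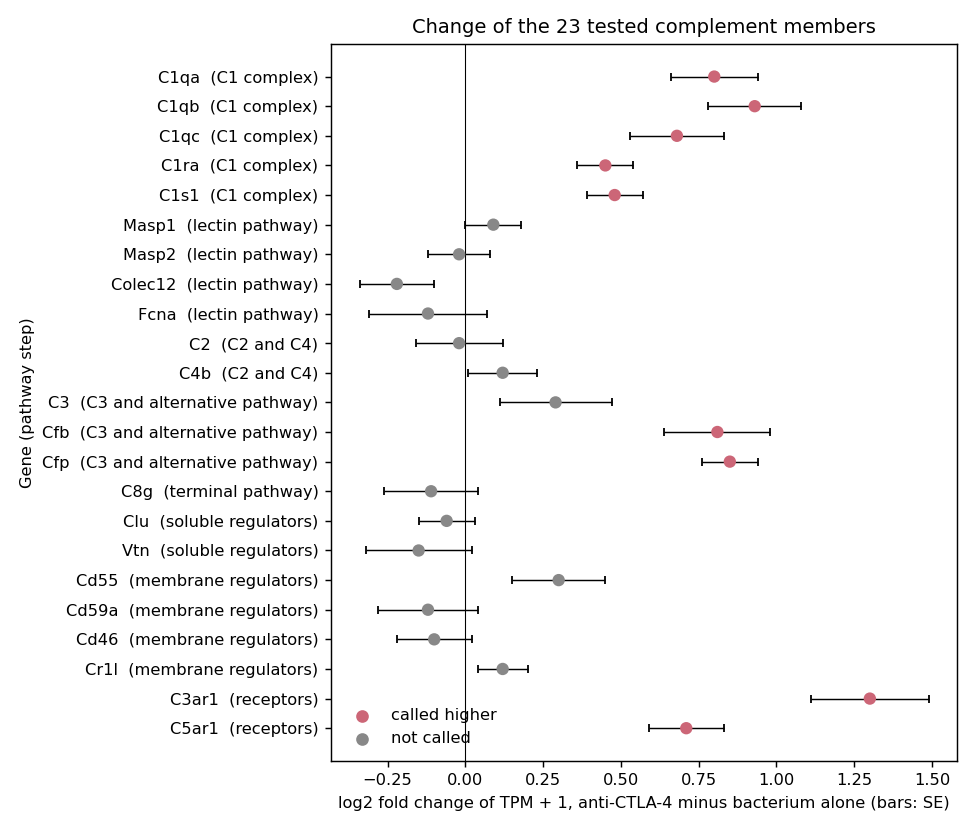
Log2 fold change of TPM + 1 (anti-CTLA-4 minus bacterium alone) with its SE for the 23 tested members, ordered by pathway step, red where the limma adjusted p was under 0.05. The red points are the C1 complex, Cfb and Cfp, and both receptors, between 0.45 and 1.30, while the lectin, C2 and C4, terminal and regulator genes lie between -0.22 and 0.30.

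The 3 genes of C1q, the recognition molecule of the classical pathway that binds antibody and dying cells, sit side by side on the minus strand of mm10 chromosome 4: C1qb at 136880126 to 136886200, C1qc at 136889802 to 136892914 and C1qa at 136895916 to 136898844. Gaps of 3601 and 3001 bases separate them. The 250 bases before the start sites of C1qb and C1qc are shown because these neighbours rose together (RefSeq, GRCm38.p6, minus strand, 5′ to 3′). C1qb runs over chr4:136886201-136886450 and C1qc over chr4:136892915-136893164. Capitals mark matches to a PU.1 core or, in C1qc only, an NF-kappaB motif.
C1qb: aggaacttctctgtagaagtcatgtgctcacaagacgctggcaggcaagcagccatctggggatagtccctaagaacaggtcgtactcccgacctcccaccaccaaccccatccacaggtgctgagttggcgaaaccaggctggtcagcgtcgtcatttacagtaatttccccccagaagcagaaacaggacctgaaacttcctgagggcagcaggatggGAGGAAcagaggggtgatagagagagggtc
C1qc: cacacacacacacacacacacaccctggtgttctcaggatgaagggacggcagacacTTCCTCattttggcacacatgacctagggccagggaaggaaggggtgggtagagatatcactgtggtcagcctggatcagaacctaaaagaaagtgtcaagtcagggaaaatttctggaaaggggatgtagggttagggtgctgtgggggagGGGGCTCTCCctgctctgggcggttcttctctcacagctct
PU.1 is the factor of the myeloid lineage, and its core (GAGGAA, either strand) begins 30 bases before the C1qb start and 193 bases before that of C1qc, there on the opposite strand. The NF-kappaB match of C1qc spans the bases 41 to 32 before its start, and no matches overlapped in these stretches.

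Start-site windows of 300 bases (250 before and 50 after) were at hand for 27 of the 36 members, among them 7 of the 9 that rose and 9 of the 14 tested others. The PU.1 core was in 4 of those 7 (C1qb, C1qc, C1ra and Cfp), in 2 of the 9, and in 28.3% of 32851 windows of all genes. An interferon-gamma type GAS motif (TTCNNNGAA) was in 1 of 7, in 2 of 9 and in 8.30% of all windows. The interferon response core GAAANNGAAA was in 0 of 7, in 3 of 9 (Vtn, Cd59a and Cd46) and in 3.44% of all, the NF-kappaB motif in 1, 0 and 4.51%, and the C/EBP motif TTGCNNAA in 2, 1 and 10.8%. These are matches of letters on both strands in short windows and describe the sequences alone. A member was counted if any of its windows matched, while the shares over all genes are of single windows (32851 for 27025 symbols). The member counts and these shares are therefore not measured alike.

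C1qa had 97.9, 118, 146, 117 and 107 TPM with the bacterium alone and 197, 253, 208 and 164 TPM with anti-CTLA-4. Mean levels were 117 ± 18.1 TPM (SD, n = 5) and 206 ± 36.6 TPM (SD, n = 4), and the log2 fold change was 0.80 ± 0.14 (SE, limma adjusted p = 0.00809). Every anti-CTLA-4 library was above every library of the bacterium alone. C1qb had 42.9, 57.0, 65.1, 43.4 and 47.3 TPM against 100.5, 110.4, 104 and 76.7 TPM, a change of 0.93 ± 0.15 (limma adjusted p = 0.00569). C1qc had 91.3, 126, 115, 97.5 and 90.9 TPM against 161, 205, 184 and 125.7 TPM, where the lowest anti-CTLA-4 library, replicate 4, lay just above the highest of the other group at 125.6. Its change was 0.68 ± 0.15 (limma adjusted p = 0.0209), and leaving out replicate 2 or 3 of the anti-CTLA-4 libraries ended the call (limma adjusted p = 0.0524 and 0.0553). Replicate 4 was the lowest anti-CTLA-4 library for all 3 chains.

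The 3 chains form the C1q protein in equal numbers, and the deposited scale hides how alike their transcripts are. C1qb held 18.7% ± 1.17 and 20.8% ± 1.03 of the summed TPM of the chains (SD, n = 5 and n = 4), below C1qa (43.0% and 43.6%) and C1qc (38.3% and 35.6%). The C1qb gene spans 6074 bases against 2928 for C1qa and 3112 for C1qc, while the longest transcripts have 1088, 1040 and 1203 bases. Per kb of transcript, C1qb held 32.2% ± 1.70 and 35.1% ± 1.43, C1qa 37.3% ± 2.20 and 37.0% ± 1.28, and C1qc 30.5% ± 2.10 and 27.8% ± 1.07. In single libraries the reads numbered 440 to 1081 for C1qa, 388 to 1068 for C1qb and 401 to 965 for C1qc. No window of 75 bases, the number of sequencing cycles, was common to the transcripts of any pair of the chains.

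**Figure D2:**
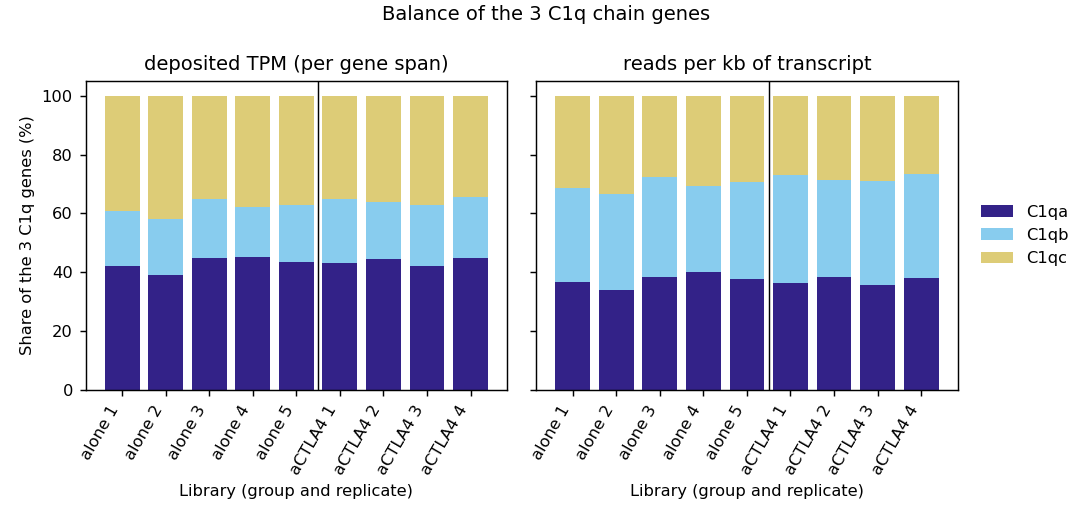
Share (%) of C1qa, C1qb and C1qc in each library (x axis, group and replicate) on the deposited TPM scale (left) and as reads per kb of the longest transcript (right). On the left C1qb takes 16.8% to 21.9%, and on the right 29.4% to 36.6%.

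C1ra and C1s1 encode the proteases that C1q activates, and lie 6.90 kb apart on chromosome 6 (124512621 to 124523440, plus strand, and 124530344 to 124542321, minus strand). C1ra had 19.6, 23.1, 22.9, 19.8 and 20.3 TPM with the bacterium alone and 26.0, 30.9, 33.5 and 27.2 TPM with anti-CTLA-4 (0.45 ± 0.09, limma adjusted p = 0.0127). C1s1 had 35.2, 34.1, 38.0, 32.0 and 38.8 TPM against 43.8, 46.9, 57.8 and 51.9 TPM (0.48 ± 0.09, limma adjusted p = 0.0113). In both genes the anti-CTLA-4 libraries lay wholly above the others. Their copies further along the same chromosome, C1rb and C1s2, were far lower, with 0 to 2 and 6 to 11 reads per library. Of the windows of 75 bases in the longest C1ra transcript, 40.1% also occur in C1rb, and 14.7% of those of C1s1 occur in C1s2. The labels do not say how such reads were shared out, so the split within each pair is uncertain.

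Markers of leukocytes moved with these genes. In the macrophage and monocyte list 8 of 14 genes rose and 0 fell, with a median log2 change of 0.68, and the list summed to 756 to 913 TPM with the bacterium alone and 1047 to 1346 TPM with anti-CTLA-4, with none of its genes at 0. Cd68, a lysosomal protein of macrophages, had means of 101 and 175 TPM, and Lyz2, the lysozyme gene of myeloid cells, 199.7 and 326 TPM. Fibroblast markers had 0 of 10 genes called (median 0.05, sums of 1325 to 2007 and 1516 to 1949 TPM). Endothelial markers had 0 of 7 called (21.6 to 24.4 and 23.3 to 24.2 TPM). Of 10 keratinocyte markers 1 was called, Krt1, a keratin of differentiating epidermis, which rose (named after its value was seen). The median change of the keratinocyte list was -0.17, with 4 of 10 changes positive. Krt10, its gene of highest TPM, lay wholly lower with anti-CTLA-4 (14682 to 18869 and 11167 to 13583 TPM). It was not called (limma adjusted p = 0.0809). Neutrophil markers had 3 of 6 tested genes higher, and their sum was 108 to 1480 and 1510 to 4461 TPM, most of it S100a8 and S100a9, which keratinocytes can make too. The 3 that rose were Csf3r (2.93 and 9.12 TPM), Cxcr2 (12.9 and 22.9 TPM) and Retnlg (0.771 and 3.14 TPM), with limma adjusted p-values of 0.00931, 0.0377 and 0.0340. Mmp8, below the filter, had 0.203 to 0.577 and 0.585 to 0.885 TPM. Other genes of the list did not go up in this way. Ngp was tested and not called (means of 0.812 and 1.15 TPM, limma adjusted p = 0.412). Below the filter, Camp had means of 1.06 and 0.722 TPM, Ltf 0.0346 and 0.0353 TPM, and Mpo 0.169 and 0.173 TPM. Ly6g and Elane had 0 reads in the libraries of the bacterium alone and 1 read each with anti-CTLA-4. Csf3r, Retnlg, Mmp8, Ngp, Camp, Ltf, Mpo, Ly6g and Elane were named after their values were seen. T cell markers rose in 8 of 9 cases and mast cell markers in 3 of 7. The part of these cells in the complement changes was not tested. With the mean of the macrophage and monocyte list as a covariate, 0 of the 9 calls were left. The log2 changes of the 9 lay between -0.30 and 0.50, and their median SE grew from 0.14 to 0.25. Over all 15704 tested genes this covariate left 0 higher and 1 lower, and the median SE grew from 0.0948 to 0.276. The list sums did not overlap between the groups, so this fit cannot tell the list and the antibody apart.

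In the lectin pathway no member rose or fell. Masp1 and Masp2, its proteases, had 4.25 ± 0.383 and 4.61 ± 0.550 TPM and 13.1 ± 1.82 and 12.9 ± 1.25 TPM (SD, n = 5 and n = 4), with log2 changes of 0.09 ± 0.09 and -0.02 ± 0.10 (SE). Colec12, a scavenger receptor with a collectin domain, had 5.83 ± 0.971 and 4.83 ± 0.642 TPM (-0.22 ± 0.12, limma adjusted p = 0.262). Fcna, the ficolin A gene, stood on 14 to 28 reads per library and had 3.91 ± 1.14 and 3.50 ± 1.01 TPM. The mannose-binding lectin genes, products of the liver, were all but unseen. Mbl1 had 0 of 102310000 reads over the 9 libraries, which allows up to 0.0293 RPM (reads scaled to the fixed total of TPM, ribosomal entries left out), and Mbl2 had 1 read, in anti-CTLA-4 replicate 2. The 9 liver markers summed to 27.0 to 40.1 TPM with the bacterium alone and 22.5 to 31.0 TPM with anti-CTLA-4, with 0 called. Most of the sum was Trf (28.2 and 23.8 TPM), the transferrin gene, followed by Apoa2 (1.85 and 2.45 TPM), and the other 7, Alb among them (0.191 and 0.148 TPM), had means under 1 TPM.

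The shared components C2 and C4, which form the C3 convertase of the classical and lectin pathways, were not called. C4b had 41.9, 41.6, 47.1, 47.7 and 34.6 TPM with the bacterium alone and 46.4, 39.2, 49.5 and 50.1 TPM with anti-CTLA-4, a log2 change of 0.12 ± 0.11 (limma adjusted p = 0.524). C2 had 5.75, 8.37, 8.65, 9.44 and 9.27 TPM against 7.73, 8.04, 9.77 and 6.84 TPM, a change of -0.02 ± 0.14. The 2 ranges overlapped in each gene. C4a, the sex-limited copy of C4b, was below the filter with 10 to 26 reads per library, and 23.5% of the 75-base windows of C4b occur in it, so this split is uncertain as well.

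C3, the hub of the cascade, had 107.6, 86.0, 101.7, 77.7 and 64.4 TPM with the bacterium alone and 120.1, 76.8, 116.0 and 113.7 TPM with anti-CTLA-4. Its mean level was 87.5 ± 17.6 TPM (SD, n = 5) against 107 ± 20.1 TPM (SD, n = 4), a log2 change of 0.29 ± 0.18 (SE, limma adjusted p = 0.345). The groups overlapped through anti-CTLA-4 replicate 2, the lowest of its group. Without that library the change was 0.43 and the limma adjusted p 0.129, the lowest among the 9 fits that left out 1 library.

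Cfb and Cfp, which build and stabilise the convertase of the alternative pathway, rose. Cfb, the gene of factor B, had 48.5, 85.1, 94.4, 70.9 and 84.4 TPM with the bacterium alone and 121, 133, 143 and 133 TPM with anti-CTLA-4, a log2 change of 0.81 ± 0.17 (limma adjusted p = 0.0172). Replicate 1 was the lowest of the first group, and all 4 anti-CTLA-4 libraries were higher than every one of it. Cfb lies on chromosome 17 in the class III region of the MHC (34856374 to 34862514, minus strand), and C2, which was not called, lies 87 bases from it on the same strand. Cfp encodes properdin, carried by myeloid cells. It had 16.98, 21.9, 23.6, 20.1 and 19.1 TPM against 37.1, 36.1, 38.6 and 37.0 TPM, means of 20.3 ± 2.55 and 37.2 ± 1.03 TPM, and the lowest adjusted p of the members (0.85 ± 0.09, limma adjusted p = 0.00217).

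**Figure D3:**
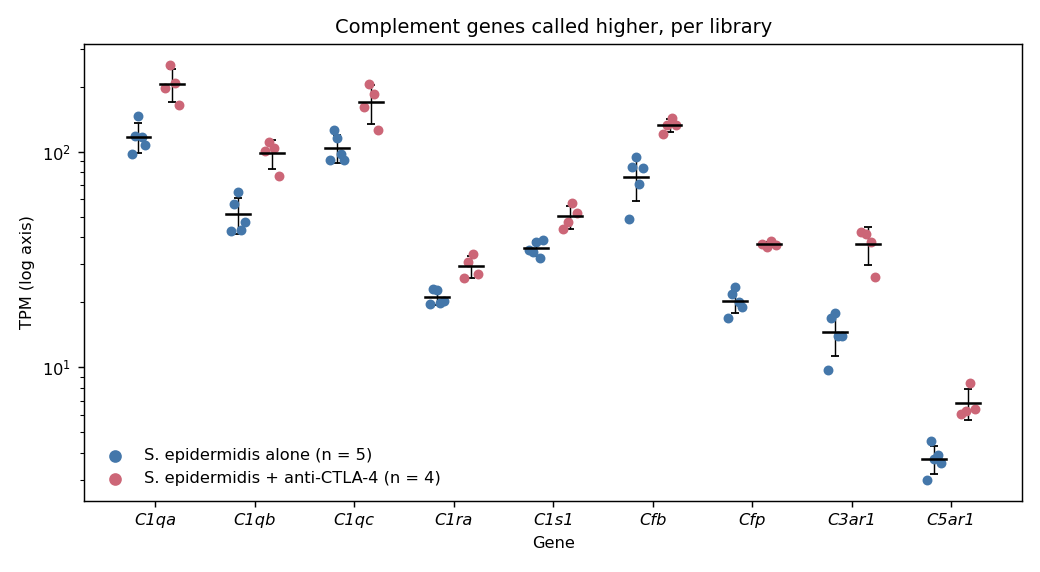
TPM (log axis) of the 9 members that rose, 1 point per library, with the group mean (line) and SD (bar); blue, bacterium alone (n = 5), red, bacterium with anti-CTLA-4 (n = 4). The red points lie above the blue ones in every gene, with the least room in C1qc (125.7 against 125.6 TPM) and the most relative to the mean in C3ar1 and Cfp.

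The receptors of the released peptides rose. C3ar1, the C3a receptor of myeloid cells (chromosome 6, 122847140 to 122856157, minus strand), had the largest change of the 23 tested members. It went from 9.76, 17.002, 17.9, 13.9 and 14.0 TPM to 42.5, 41.6, 38.0 and 26.3 TPM, or from a mean of 14.5 ± 3.19 to 37.1 ± 7.43 TPM (SD, n = 5 and n = 4). The second mean is 2.56 times the first, and the log2 fold change was 1.30 ± 0.19 (SE, limma adjusted p = 0.00407). C5ar1, the C5a receptor that draws neutrophils and macrophages, had 3.002, 4.57, 3.75, 3.94 and 3.59 TPM against 6.07, 6.31, 8.48 and 6.43 TPM, a log2 change of 0.71 ± 0.12 (limma adjusted p = 0.00601).

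C5ar2, a second C5a receptor that lies 4.41 kb from C5ar1 on chromosome 7, was below the filter with 0 to 21 reads per library (38 in all with the bacterium alone and 49 with anti-CTLA-4). Vsig4, the C3b receptor of resident macrophages, was below it too despite 26 to 63 reads per library, since its span is 46237 bases. Its TPM of 0.437, 0.716, 0.844, 0.925 and 0.443 against 0.493, 0.829, 0.744 and 0.310 overlapped throughout. Limma-voom on recovered reads, with a minimum of 10 reads in at least 4 libraries in place of the TPM filter, gave adjusted p-values of 0.269 for C5ar2 and 0.692 for Vsig4.

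Of the terminal pathway only C8g, the gamma chain of C8, was tested, with 6.76 ± 0.666 and 6.33 ± 1.83 TPM (SD, n = 5 and n = 4) and 21 to 37 reads per library, and it was not called (limma adjusted p = 0.695). Hc, the mouse C5 gene, had 14 to 44 reads per library, C7 had 14 to 34 and C9 had 11 to 32, with adjusted p-values of 0.811, 0.774 and 0.422 by limma-voom on the recovered reads. C6 was the only member below the filter whose groups did not overlap, where 8.02% of all tested genes lay wholly higher. C6 had 5, 3, 6, 0 and 5 reads with the bacterium alone and 7, 16, 16 and 9 with anti-CTLA-4, or 0 to 0.0490 and 0.0650 to 0.143 TPM. The 19 and 48 reads amount to 0.333 RPM (95% exact Poisson interval 0.200 to 0.520) and 1.06 (0.782 to 1.41), intervals that cover counting error only. C6 was not called in the fit without an expression filter (limma adjusted p = 0.0973).

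**Figure D4:**
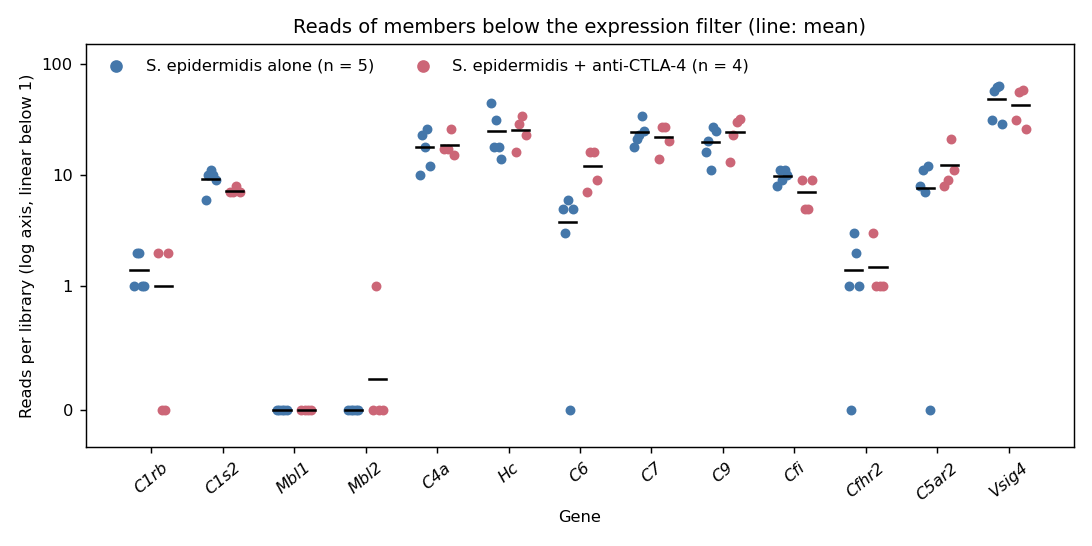
Reads per library (log axis, linear below 1) of the 13 members below the expression filter, 1 point per library with the group mean as a line; blue, bacterium alone, red, with anti-CTLA-4. Mbl1 lies at 0 throughout, C6 is higher in each red point (7 to 16) than in any blue one (0 to 6), and the other 11 overlap.

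None of the regulators rose or fell. Cd55, which speeds the decay of convertases, had 10.9, 15.4, 11.5, 18.0 and 11.8 TPM with the bacterium alone and 18.0, 15.6, 14.3 and 18.4 TPM with anti-CTLA-4, overlapping groups with a log2 change of 0.30 ± 0.15 (limma adjusted p = 0.238). Cr1l, the rodent inhibitor Crry, had 15.2 ± 1.66 and 16.6 ± 0.696 TPM (SD, n = 5 and n = 4), a change of 0.12 ± 0.08. The cofactor gene Cd46 had 4.36 ± 0.878 and 3.97 ± 0.224 TPM, and Cd59a, which blocks the pore, 5.24 ± 1.44 and 4.63 ± 0.349 TPM. Summed TPM of these 4 membrane regulators was 30.5 to 48.1 with the bacterium alone and 40.4 to 43.5 with anti-CTLA-4. For the C1 complex the same sums were 287 to 388 and 446 to 647 TPM, and for the receptors 13.9 to 23.1 and 33.9 to 49.8 TPM. Such sums compare the groups within a step and not the steps with each other, since gene spans differ between steps. Among soluble inhibitors, clusterin (Clu) had 45.2 ± 1.87 and 43.6 ± 5.95 TPM and vitronectin (Vtn), on 11 to 25 reads per library, 3.56 ± 0.985 and 3.08 ± 0.635 TPM. Cfi, the protease that destroys C3b, had 5 to 11 reads per library (49 in all with the bacterium alone and 28 with anti-CTLA-4). Cfhr2 had 0 to 3 reads per library (7 and 6 in all). Neither was called in the fit without an expression filter (limma adjusted p = 0.280 and 0.958), and at this depth a change could be missed.

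As RPM per kb of the longest transcript, C3 (55.9 ± 11.9), C1qa (44.7 ± 7.32) and Clu (44.2 ± 0.687) led the tested members with the bacterium alone (SD, n = 5). With anti-CTLA-4 (n = 4) C1qa (81.2 ± 14.9), C1qb (76.7 ± 11.7), C3 (70.3 ± 13.3) and C1qc (61.2 ± 12.1) stood at the top, within each other's spread, and Clu had 44.0 ± 5.10. Cfb moved from 23.3 ± 5.74 to 41.3 ± 1.37 and C3ar1 from 4.13 ± 0.934 to 10.9 ± 2.33 on this scale. The lowest tested members were Vtn and Fcna, at 0.881 and 1.27 with the bacterium alone. The labels do not say whether intronic reads were counted, which would raise genes with long introns such as Colec12 (span 170347 bases).

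Other genes of the system came from a list of 32, of which 30 were in the table and 12 were tested. Of these 4 rose and 0 fell (1 lower, Susd4, by limma-voom on recovered reads with the read minimum). Itgam and Itgb2, the chains of complement receptor 3 on phagocytes, rose from 3.53 ± 0.673 to 10.6 ± 1.53 and from 7.19 ± 1.05 to 16.2 ± 3.12 TPM (SD, n = 5 and n = 4; log2 changes 1.36 and 1.06, limma adjusted p = 0.00212 and 0.00329). Itgam is also in the macrophage list. C1rl, a relative of C1r, went from 1.37 ± 0.124 to 2.22 ± 0.446 TPM (limma adjusted p = 0.0296), a call kept by 2 of the 9 leave-one-out fits (limma adjusted p up to 0.0796). Not called in the main fit were the C1 inhibitor gene Serping1 (77.5 ± 6.29 and 87.9 ± 8.47 TPM), the factor D gene Cfd of fat cells (40.1 ± 14.0 and 34.9 ± 8.06 TPM) and Itgax (4.34 ± 0.718 and 5.80 ± 0.964 TPM). By limma-voom on recovered reads with the read minimum, Serping1 and Itgax were called higher (limma-voom adjusted p = 0.0217 and 0.0429). Cfd was not called there either (limma-voom adjusted p = 0.754). Serping1, Cfd and Itgax were chosen after their values were seen.

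The 9 calls held in each fit with another pseudocount, filter, scaling or variance model and with the replicate number as a block, and 8 or 9 held without any single library. They did not hold with a skin-composition covariate. The mean of the skeletal muscle list (1527 to 2382 and 1346 to 1880 TPM summed) left 0 calls and that of the hair follicle list (32.0 to 53.4 and 19.5 to 27.8 TPM) left 1, Cfp, although all 9 log2 changes stayed positive, between 0.30 and 1.47, and all 9 kept an unadjusted p under 0.05. Over all genes the muscle covariate left 9 higher and 3 lower calls, the hair follicle covariate 142 and 5, and the macrophage and monocyte covariate 0 and 1.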

How the data were processed

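Total RNA of ear skin was made into 9 libraries (500 ng input, 75 cycles), per the labels. The deposited table gives TPM per gene and library, which the authors made on mm10 with tools that include STAR, HOMER and DESeq2, per the submitters' processing notes; no versions, roles or counting rule are given there. Reads were worked back as TPM times span over the worth of 1 read, found per library from low values. Listed genes summed to 696393 to 728933 TPM.

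Genes that reached 1 TPM in 4 or more libraries were compared on log2(TPM + 1) by limma 3.58.1 (R 4.3.3) with a variance trend and no covariate, two-sided, Benjamini-Hochberg adjusted over all genes, at 0.05. The pseudocount understates changes of low genes. The script was tested on simulated data. Every member found is named; of the start-site sequences, those of neighbouring C1q genes are printed; other complement genes are named if called or among the 4 smallest p-values, and marker lists by counts. The members, lists and tests were chosen with earlier results of these data known. Libraries correlated at 0.918 to 0.959, and none was a copy of another. Alternatives changed the pseudocount, filter, scaling, variance model, block, covariates and libraries. A limma-voom fit on the recovered reads was added after seeing the data, as the deposited unit is not a read count. The values of some listed genes, which the counts include, are not reported here.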

Additional observations from a re-analysis of the deposited data

Results flagged for a closer look

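In 7 of the 78 groups of values checked, 1 library lay far from the others of its group, where chance gives about 1 in 20 for continuous values. That rate does not hold for groups with few reads, such as those of Mbl2 and Cfhr2. Mbl2 with the bacterium alone, at 0 throughout, is among the 78 and could not be flagged. Anti-CTLA-4 replicate 2 had the lowest C3 (76.8 TPM) and Masp1 (3.80 TPM) of its group and the lone Mbl2 read (0.101 TPM). Anti-CTLA-4 replicate 3 had the highest C5ar1 (8.48 TPM) and C5ar2 (1.61 TPM). Replicate 1 of the bacterium alone had the lowest C2 (5.75 TPM), and anti-CTLA-4 replicate 1 the highest Cfhr2 (0.0460 TPM, 3 reads).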

How the results depend on the processing

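Of the members, 9 were higher and 0 lower in the main comparison, and 8 to 9 and 0 without any 1 library. The count higher was 0, 1 and 0 with the muscle, hair follicle and macrophage covariates. Of the other complement genes 4 were higher and 0 lower. Their count higher was 2 at a minimum of 5 TPM, 2 with the replicate block, 0, 2 and 0 with the muscle, hair follicle and macrophage covariates, and 8 with limma-voom on recovered reads under either filter (chosen after seeing the data), which also gave 1 lower under the read filter. Leaving out 1 library gave 3 to 5 higher and 0 lower. The replicate block kept all 9 member calls and ended that of C1rl (limma adjusted p = 0.0939); over all genes it gave 593 higher and 88 lower against 1124 and 704. Same-numbered libraries did not deviate together (r of -0.09 to 0.02), and none correlated best with its own number. The labels do not say whether same-numbered libraries share anything besides the number.

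Signs turned as follows, none of them called. With the macrophage covariate the log2 changes were -0.17 (C1qa), -0.20 (C1qb), -0.30 (C1qc), -0.11 (Cfb), -0.20 (C3ar1), -0.13 (Cr1l), 0.43 (Masp2) and 0.01 (Clu). With the muscle covariate they were 0.18 (Fcna), 0.01 (C8g), 0.18 (Vtn), 0.04 (Cd59a) and 0.07 (Cd46), and with the hair follicle covariate 0.03 (C2) and -0.03 (C4b). Masp2 had 0.00 with array weights and 0.04 with limma-voom, and C2 0.02 with the replicate block and with limma-voom. Without 1 library the range was -0.06 to 0.06 for Masp2, -0.26 to 0.00 for Fcna, -0.13 to 0.04 for C2, -0.26 to 0.00 for C8g and -0.11 to 0.04 for Clu. The cause was not tested. Over all genes, 61.5% of calls were higher, against 47.9%, 49.4% and 48.0% with quantile, median and top-50-free scaling, and limma-voom gave 1942 higher and 1092 lower.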
